A study of Mus musculus with 4 samples.

Results

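The splicing factor genes described here are the protein-coding genes of the mouse RefSeq gene table whose symbol starts with Snrp, Sf3a, Sf3b, Prpf, Srsf, Hnrnp, Lsm or U2af. The rule found 84 of 21887 protein-coding genes, and it used names only, not measured values. Of these, 81 encode splicing factors or relatives of the Sm proteins. The other 3 match by name alone: Lsmem1 and Lsmem2 encode membrane proteins, and Hnrnpa1l2-ps2 carries a pseudogene's name although the table lists it as protein-coding. Genes named Snrnp are not covered by the rule.

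ATAC-seq, which uses the transposase Tn5 to tag open DNA, was applied to pachytene spermatocytes from mouse testis carrying the label P35. The cells carried the genotype label Znhit1_KO (KO below) or CTRL, with 2 libraries each. ZNHIT1 is a subunit of the SRCAP complex, which places the histone variant H2A.Z into nucleosomes, and the question was how its loss affects accessible sites. The sources used here do not state the allele, any Cre driver, the strain or the number of animals per library. The data are 2 peak lists, 1 per genotype, each recorded for the first library of its genotype. They hold 21004 separate intervals in KO and 15376 in CTRL, with positions and no heights. With 1 list per genotype there is no replicate check and no p-value, so every difference below is between these lists, and all intervals given are Wilson 95% intervals for counting error. In such bulk data, a site open in more cells and a site cut more often per cell cannot be told apart, and the read depth behind each list is unknown. All 8 pachytene marker genes examined, among them Sycp1, Sycp3 and Mybl1, had a peak in both lists. The 17 markers of spermatids, Sertoli cells, Leydig cells and immune cells had none, and of 6 spermatogonial genes 1 had a peak in both lists and 2 in the CTRL list alone.

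The spliceosome removes introns from pre-mRNA. It is built on small nuclear RNAs carried in particles, the snRNPs: U1 recognises the 5' splice site, U2 the branch point, and the U4/U6.U5 tri-snRNP brings in the RNAs that form the active site. Sm proteins form a ring around most of these RNAs and Lsm proteins a like ring at the end of U6. SR proteins and hnRNP proteins bind pre-mRNA and promote or block the use of nearby sites. Male germ cells make many transcript isoforms, and pachytene spermatocytes are among the most actively transcribing cells of the testis.

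Most splicing factor genes had open gene ends in both genotypes. Peaks were counted at a gene's ends, that is, no more than 1 kb from the first or last annotated base. Of the 84 genes, 64 (76.2%, 66.1 to 84.0) had one in both lists, against 28.6% of all protein-coding genes. Another 6 (7.14%, 3.32 to 14.7) had one in the KO list alone, against 9.81% of all genes, and 4 (4.76%, 1.87 to 11.6) in the CTRL list alone, against 4.66%. Taken over all genes, with or without a peak, the shares found in 1 list alone were thus close. They do not compare genes that had a peak, since far more of all genes than of the members had none. Of all genes with a peak, 6255 were in both lists, 2147 in KO alone and 1019 in CTRL alone. Among genes with a peak, members were thus less often in 1 list alone than all genes were, a difference that was not tested. The remaining 10 (11.9%) had none in either list, against 57.0% of all genes. Counted by list, 70 members had a peak in KO and 68 in CTRL, or 83.3% and 80.95%, against 38.4% and 33.2% of all genes. The split between lists depended on which intervals were counted. With only intervals listed at least 2 times, 45 members were in both lists (15.9% of all genes). Another 11 were then in KO alone (7.71% of all genes) and 12 in CTRL alone (6.56% of all genes). At 28 of the 70 members with a KO peak and 30 of the 68 with a CTRL peak, a gene-end peak also lay within 1 kb of the end of another protein-coding gene. Over all genes this was 31.0% of those with a KO peak and 32.3% of those with a CTRL peak. With such peaks left out, 37 members (44.0%) were in both lists, against 19.1% of all genes.

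In each part of the spliceosome most genes were open in both lists, from 62.5% of the tri-snRNP genes upwards. All 5 genes of U1 were, including Snrpa and Snrpc, which encode U1 proteins. So did Prpf19, the ubiquitin ligase of the Prp19 complex, and Prpf18, a factor of the second splicing step. Of 8 Sm genes, 6 were in both lists and 1 in CTRL alone. Of 14 genes of U2 and of U2AF, which binds the polypyrimidine tract and the 3' splice site, 10 were in both, 2 in KO alone and 1 in CTRL alone. Of 8 genes of the tri-snRNP and its activation, 5 were in both, 2 in KO alone and 1 in CTRL alone. Of the 7 genes of the Lsm2-8 ring, 5 were in both and 1 in each list alone, and of 6 other Lsm genes 5 were in both. Of 11 SR protein genes, 10 were in both lists, and of 20 hnRNP genes 16 were in both and 1 in KO alone. Of the 10 members found in 1 list alone, 9 thus belong to the snRNPs or the Lsm ring and 1 to the hnRNP proteins. The snRNP, Prp19 and Lsm genes are also the larger group. Of these 50 genes, 5 were in KO alone (10.0%, against 9.81% of all genes) and 4 in CTRL alone (8.0%, against 4.66%). Of the 31 SR and hnRNP genes, 1 was in KO alone (3.23%) and 0 in CTRL alone. With 1 list per genotype this split was not tested.

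**Figure D1:**
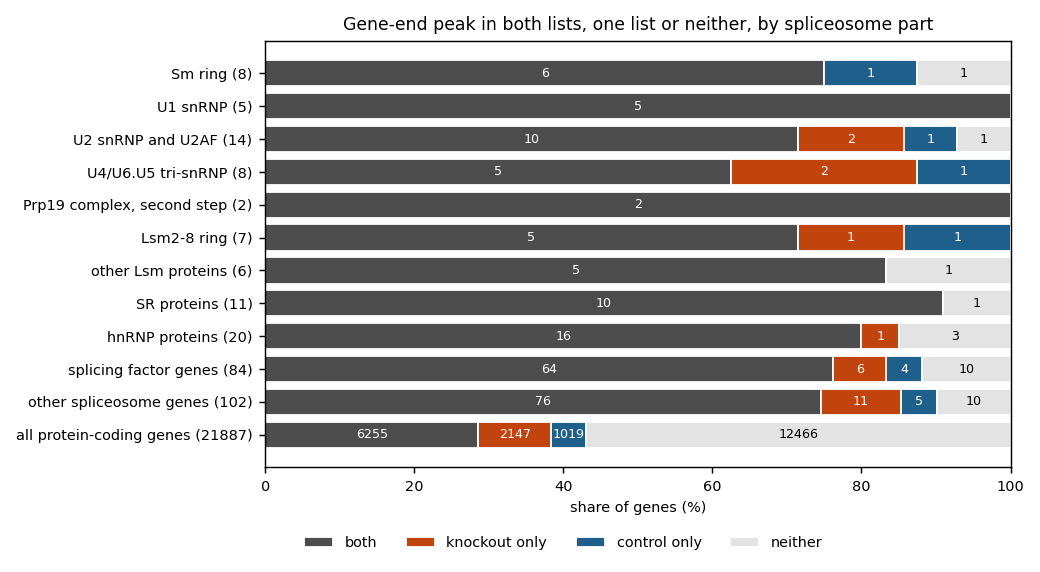
Share of genes (x axis, %) with a gene-end peak in both lists (dark grey), in the KO list alone (orange), in the CTRL list alone (blue) or in neither (light grey), by spliceosome part (y axis, number of genes in brackets); numbers in the bars are genes. The splicing factor genes reach 64 of 84 in both lists, and the 102 other spliceosome genes 76, against 6255 of 21887 protein-coding genes.

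The 6 members open in the KO list alone belong to U2, the tri-snRNP, the Lsm ring and the hnRNP proteins. Prpf8, whose protein is the large U5 scaffold around the active site, had a peak of 556 bp (chromosome 11, 75486589 to 75487144) in KO, and the nearest CTRL peak lay 21890 bp from the gene. Prpf3, a U4/U6 protein gene, had one of 419 bp (chromosome 3, 95855598 to 95856016). Sf3b5 had the widest peak of the 6, at 1070 bp (chromosome 10, 13007943 to 13009012), and it was listed 4 times. Sf3a3 had one of 332 bp (chromosome 4, 124714567 to 124714898). Both encode subunits of the U2 complexes SF3b and SF3a, which hold the branch point. Lsm5, a member of the ring on U6, had a peak of 660 bp (chromosome 6, 56704225 to 56704884). Hnrnph2, which binds G-rich RNA and is the 1 member on the X chromosome, had one of 318 bp (chromosome X, 134600947 to 134601264), which also lay at an end of Gla. The nearest CTRL peak lay between 9875 bp (Lsm5) and 124808 bp (Hnrnph2) from the ends of these 6 genes.

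The members open in the CTRL list alone had peaks of similar width to each other, from 802 to 873 bp. Prpf31, which encodes a U4/U6 protein that links it to U5, had a peak of 854 bp (chromosome 7, 3629539 to 3630392), listed 4 times and shared with the end of Tfpt. The nearest KO peak lay 2076 bp from the gene, so Prpf31 counted in both lists with a window of 3 kb. Sf3b3, an SF3b subunit gene, had a peak of 808 bp (chromosome 8, 110846436 to 110847243), which also lay at the end of Cog4. Snrpf, which encodes the Sm protein F, had one of 873 bp (chromosome 10, 93589396 to 93590268). Lsm2 had one of 802 bp (chromosome 17, 34981789 to 34982590). From the ends of these 3 genes the nearest KO peak lay 15177 bp, 67828 bp and 9701 bp away. With only intervals listed at least 2 times, Hnrnph2, Lsm5, Prpf8 and Sf3b5 were still in KO alone and Lsm2, Prpf31 and Sf3b3 in CTRL alone, whereas Prpf3, Sf3a3 and Snrpf had no peak left.

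The sequences at these starts are shown because the called intervals that differ between the lists lie on them. Each runs 5' to 3' from 250 bases before to 50 bases after the start annotated by RefSeq (GRCm38.p6, the patched build whose primary chromosomes are those of mm10). Capitals mark matches on either strand to any of 7 motifs. The ETS core was searched as CCGGAA. The GC box was searched as GGGCGG, and the CCAAT box as its own letters. The NRF1 core was GCATGCGC and the cyclic AMP response element (CRE) was TGACGTCA. The core bound by MYB proteins was TAACNG. The TATA box was searched as TATAAA. Prpf8, Sf3a3 and Lsm5 were in KO alone, and Prpf31, Sf3b3 and Snrpf in CTRL alone. Srsf6 and Hnrnpl, described further on, had peaks over this stretch in both lists.
Prpf8, chr11:75486527-75486826, plus strand: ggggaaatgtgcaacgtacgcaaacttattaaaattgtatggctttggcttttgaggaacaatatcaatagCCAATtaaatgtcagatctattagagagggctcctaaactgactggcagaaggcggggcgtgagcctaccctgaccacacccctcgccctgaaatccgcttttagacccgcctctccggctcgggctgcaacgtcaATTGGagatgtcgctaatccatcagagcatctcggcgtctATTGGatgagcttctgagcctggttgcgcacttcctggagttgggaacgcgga
Sf3a3, chr4:124714611-124714910, plus strand: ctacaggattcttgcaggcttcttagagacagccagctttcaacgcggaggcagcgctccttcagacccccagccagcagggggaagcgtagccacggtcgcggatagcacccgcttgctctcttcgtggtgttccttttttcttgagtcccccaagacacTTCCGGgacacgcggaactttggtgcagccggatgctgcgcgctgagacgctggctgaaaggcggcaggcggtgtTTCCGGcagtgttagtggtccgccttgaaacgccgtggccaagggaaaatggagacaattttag
Lsm5, chr6:56704650-56704949, minus strand: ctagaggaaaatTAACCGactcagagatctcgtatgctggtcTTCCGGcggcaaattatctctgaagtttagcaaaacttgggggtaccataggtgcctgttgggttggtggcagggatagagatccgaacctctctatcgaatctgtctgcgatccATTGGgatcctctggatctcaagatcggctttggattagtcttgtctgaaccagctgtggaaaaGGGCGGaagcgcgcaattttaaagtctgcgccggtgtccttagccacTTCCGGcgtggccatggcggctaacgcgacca
Prpf31, chr7:3629735-3630034, plus strand: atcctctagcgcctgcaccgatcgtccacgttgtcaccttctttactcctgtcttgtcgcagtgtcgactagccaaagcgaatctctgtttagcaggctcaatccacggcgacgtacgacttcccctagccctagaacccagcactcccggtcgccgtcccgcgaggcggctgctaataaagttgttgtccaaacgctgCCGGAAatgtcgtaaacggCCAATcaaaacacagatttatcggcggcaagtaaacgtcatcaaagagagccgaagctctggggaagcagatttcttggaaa
Sf3b3, chr8:110846754-110847053, minus strand: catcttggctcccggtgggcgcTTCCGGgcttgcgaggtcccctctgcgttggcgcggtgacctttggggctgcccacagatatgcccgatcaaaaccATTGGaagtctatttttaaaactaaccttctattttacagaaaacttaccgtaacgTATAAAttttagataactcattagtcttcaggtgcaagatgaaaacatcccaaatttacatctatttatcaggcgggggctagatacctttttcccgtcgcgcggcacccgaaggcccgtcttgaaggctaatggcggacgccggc
Snrpf, chr10:93589609-93589908, minus strand: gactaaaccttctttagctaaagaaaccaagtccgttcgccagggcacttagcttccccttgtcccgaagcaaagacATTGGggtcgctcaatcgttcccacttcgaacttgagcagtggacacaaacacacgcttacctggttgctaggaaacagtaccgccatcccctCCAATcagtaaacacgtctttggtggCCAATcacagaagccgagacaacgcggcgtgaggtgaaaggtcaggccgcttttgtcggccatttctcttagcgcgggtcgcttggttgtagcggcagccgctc
Srsf6, chr2:162931258-162931557, plus strand: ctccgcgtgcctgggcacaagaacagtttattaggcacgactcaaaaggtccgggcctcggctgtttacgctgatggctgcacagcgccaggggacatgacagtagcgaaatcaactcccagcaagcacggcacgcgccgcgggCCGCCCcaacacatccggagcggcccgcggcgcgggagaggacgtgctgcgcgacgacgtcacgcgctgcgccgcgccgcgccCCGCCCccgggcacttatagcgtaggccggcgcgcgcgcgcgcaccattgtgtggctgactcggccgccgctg
Hnrnpl, chr7:28810640-28810939, plus strand: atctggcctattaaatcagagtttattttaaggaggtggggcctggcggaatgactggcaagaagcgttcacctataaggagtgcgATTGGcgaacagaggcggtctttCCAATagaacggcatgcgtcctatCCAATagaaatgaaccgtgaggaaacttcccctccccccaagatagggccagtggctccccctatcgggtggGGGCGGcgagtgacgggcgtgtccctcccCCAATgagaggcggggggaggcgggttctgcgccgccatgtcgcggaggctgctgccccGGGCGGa
The KO peak covered 238 of these 300 bases at Prpf8, 288 at Sf3a3 and 235 at Lsm5, and no CTRL peak touched them. The CTRL peak covered all 300 bases at Prpf31, Sf3b3 and Snrpf, and no KO peak touched them. Prpf8 and Snrpf each hold CCAAT in 3 places and Hnrnpl in 4, and Sf3a3 and Lsm5 each hold the ETS core in 2.

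The annotated starts of the members were rich in CpG and in the ETS core, and the gap to other genes was smaller among genes open in both lists. The RefSeq promoter table matched 72 of the 84 members and 17492 protein-coding genes, and the most upstream start was used for each. An observed to expected CpG ratio over 0.6, typical of CpG islands, was found at 66 of the 72 starts (91.7%), against 48.4% of all genes. Among genes with a peak in both lists, it was found at 52 of 53 members (98.1%) and at 87.2% of all such genes. The ETS core was present at 31 of 72 members (43.1%), against 19.1% of all genes, and within the genes in both lists at 47.2% of members against 34.6%. The GC box was present at 66.7% of members and 46.3% of all genes, and within the genes in both lists at 77.4% and 71.2%. CCAAT was present at 51.4% of members and 39.2% of all genes, and within the genes in both lists at 43.4% and 42.9%. Of the 5 members in KO alone with a start in the table, 3 hold CCAAT, as do 35.6% of all such genes. Of the 4 in CTRL alone all 4 do, against 39.6% of all such genes. The MYB core, the letters bound by the pachytene regulator MYBL1, stood at 20.8% of members and 20.8% of all genes. The NRF1 core (6.94% and 3.61%), the CRE (2.78% and 2.33%) and the TATA box (9.72% and 13.3%) were found at few starts. Within the genes in both lists each of these differences ran the other way. The NRF1 core was at 3.77% of members against 7.96%, the CRE at 3.77% against 4.36% and the TATA box at 9.43% against 5.36%. Such matches are letters in a window and do not show that a factor was bound.

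Peaks at splicing factor genes were wider than those of most genes, to a like degree in both genotypes. The widest gene-end peak had a median width of 823.5 bp in KO (quartiles 660.0 and 1089.5 bp) over 70 members, and of 822.5 bp in CTRL (673 and 1116 bp) over 68. Over all protein-coding genes with a peak, the medians were 674 bp in KO and 670.0 bp in CTRL. A width of at least 1000 bp was reached at 23 of 70 members in KO (32.9%, against 15.9% of all genes with a peak) and at 21 of 68 in CTRL (30.9%, against 16.3%). In the KO list the widths ran from 299 bp at Sf3b6, a subunit that lies close to the branch point, to 1707 bp at Hnrnpa1. In the CTRL list they ran from 360.0 bp at Snrpg, an Sm gene, to 1971 bp at Hnrnpa2b1. The widest gene-end peak was listed 4 or more times at 13 of 70 members in KO and 14 of 68 in CTRL (18.6% and 20.6%, against 6.50% and 8.80% of all genes with a peak).

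Among the members, most peaks of at least 1000 bp lay at SR and hnRNP genes. At SR protein genes the median was 1264.5 bp in KO and 1200.0 bp in CTRL, over 10 genes in each list. At hnRNP genes it was 1008 bp in KO over 17 genes and 1136.5 bp in CTRL over 16. Joined after these values were seen, the SR and hnRNP genes reached 1000 bp at 17 of 27 in KO (63.0%, 44.2 to 78.5) and at 16 of 26 in CTRL (61.5%, 42.5 to 77.6). The snRNP, Prp19 and Lsm genes did so at 6 of 43 in KO (14.0%, 6.56 to 27.3) and at 5 of 42 in CTRL (11.9%, 5.19 to 25.0). These shares were no higher than the 15.9% in KO and 16.3% in CTRL of all genes with a peak. Srsf2 had 1591 bp in KO and 1696 bp in CTRL, and Srsf1 had 1276 bp in KO and 1614 bp in CTRL. Both encode general SR proteins that act in constitutive and alternative splicing. Among hnRNP genes, Hnrnpk had 1558 bp in KO and 1632 bp in CTRL, Hnrnpul2 had 1407 bp in KO and 1687 bp in CTRL, and Hnrnpr 1481 bp in KO and 1449 bp in CTRL. The Sm ring had medians of 641 bp in KO over 6 genes and 757 bp in CTRL over 7. The Lsm2-8 ring had medians of 675 bp and 603.5 bp, over 6 genes in each list.

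**Figure D2:**
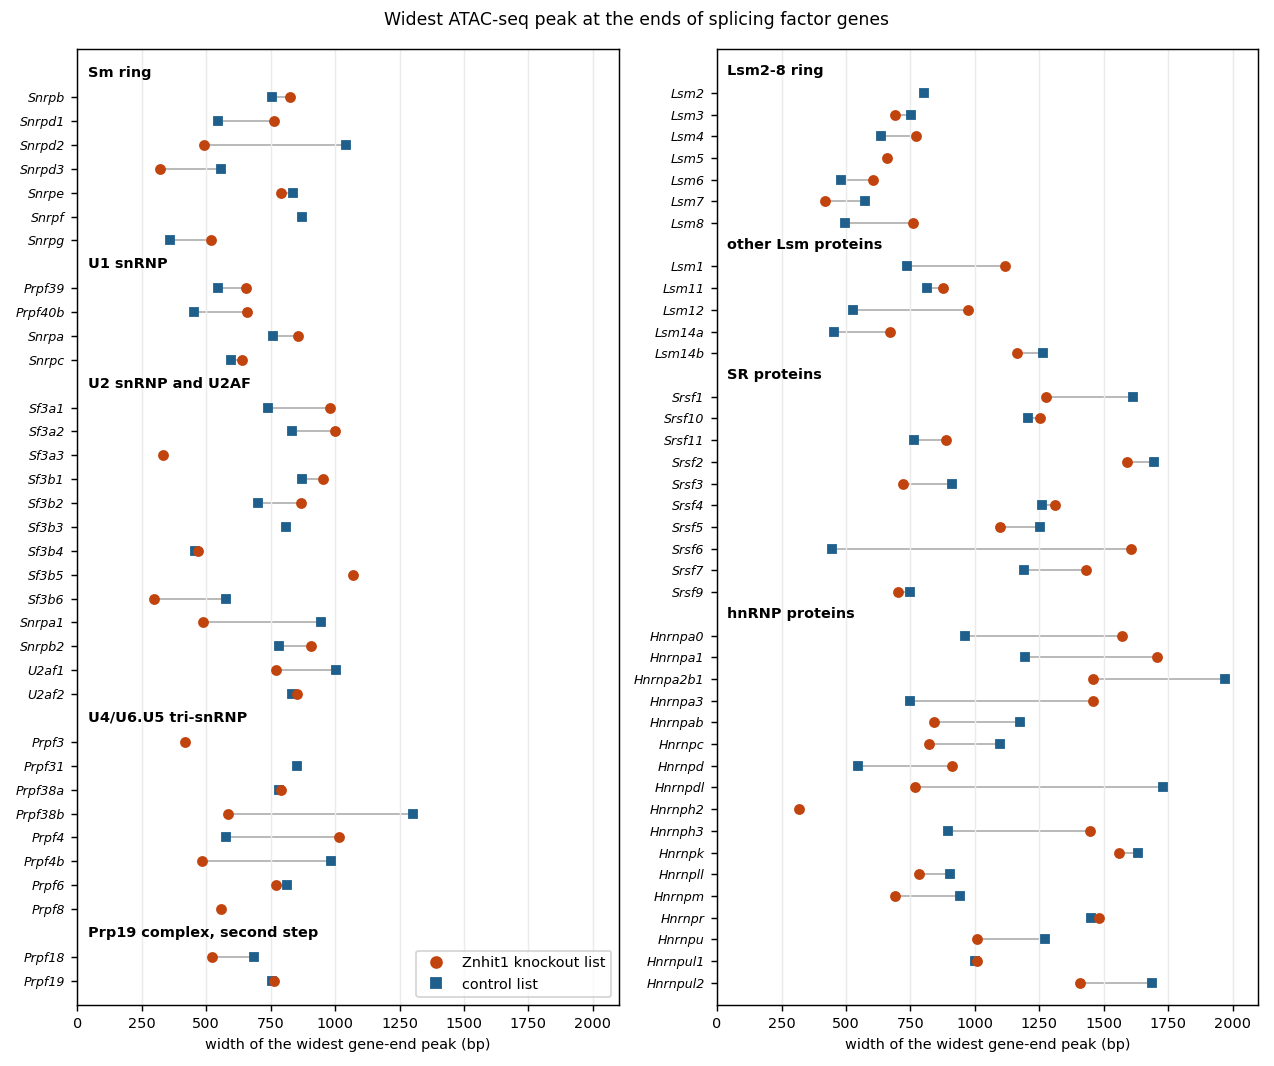
Width of the widest gene-end peak (x axis, bp) at members with a peak (y axis, by spliceosome part), in the KO list (orange circles) and the CTRL list (blue squares), joined by a line where both have one. The SR and hnRNP genes reach 1000 bp at 17 of 27 in KO and 16 of 26 in CTRL, and Srsf6 has the largest gap, 1607 bp in KO and 446 bp in CTRL.

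Over the members as a whole, the median ratio of widths was close to 0 on the log2 scale. At 62 members the widest peaks of the lists overlapped, and the KO width over the CTRL width had a median log2 ratio of 0.04 (quartiles -0.32 and 0.32). Over the 5955 such genes of the whole table it was 0.04 too (quartiles -0.28 and 0.39). The KO peak was the wider at 36 members of the 62 (53.1% of all such genes) and the CTRL peak at 26 (46.8% of all such genes). Peaks at least 2-fold wider in KO were found at 1 member, against 5.96% of all such genes, and at least 2-fold wider in CTRL at 4, against 3.38%. In the SR genes 5 were wider in KO and 5 in CTRL, and in the hnRNP genes 7 were wider in KO and 9 in CTRL. In U1 all 5 were wider in KO. The U2 genes split into 6 wider in KO and 3 wider in CTRL, and the tri-snRNP genes into 2 and 3.

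At some members with large ratios, 1 list had a single peak where the other had several. Srsf6, an SR protein gene on chromosome 2, had a single KO peak of 1607 bp (162930926 to 162932532) where CTRL had 3 peaks of 446, 377 and 212 bp. The log2 ratio of the widest peaks was 1.85, whereas the covered length within the gene-end windows was 1583 bp in KO and 1035 bp in CTRL. Hnrnpa3 had 1458 bp in KO, against 2 CTRL peaks of 749 and 499 bp (log2 ratio 0.96). Hnrnpa1, with a smaller ratio of 0.52, had 1707 bp in KO, against 1193 and 402 bp in CTRL. In the other direction, Hnrnpdl had 3 KO peaks of 537, 769 and 347 bp, against a single CTRL peak of 1731 bp (-1.17). Snrpd2, an Sm gene, had 2 KO peaks of 490 and 266 bp, against 1041 bp in CTRL (-1.09). In all, 1 KO peak met several CTRL peaks at 6 of the 64 members in both lists (9.38%, against 3.05% of all such genes), and 1 CTRL peak met several KO peaks at 4 (6.25%, against 2.51%). Of these 10 members, 8 are SR or hnRNP genes.

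Other members differed in width without such a split. Prpf38b, a relative of the tri-snRNP activation factor gene Prpf38a, had a peak of 585 bp in KO and 1304 bp in CTRL (log2 ratio -1.16). Sf3b6 had 299 bp in KO and 578 bp in CTRL (-0.95). Snrpa1, the U2 protein A' gene, had 486 bp in KO and 945 bp in CTRL (-0.96), and the KO peak began 52 bp after the annotated start while the CTRL peak covered it. Prpf4b, a kinase gene of the tri-snRNP, had a widest peak of 485 bp in KO and 985 bp in CTRL (-1.02), with a further KO peak of 246 bp upstream. Wider in KO were Prpf4, a U4/U6 gene, with 1016 bp against 578 bp in CTRL (0.81), Lsm12 with 975 bp against 527 bp (0.89), and Hnrnpd with 913 bp against 546 bp (0.74). Each of these differences is between 2 called intervals. The width of a called interval also depends on exact depth and threshold, which the sources used here do not state.

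**Figure D3:**
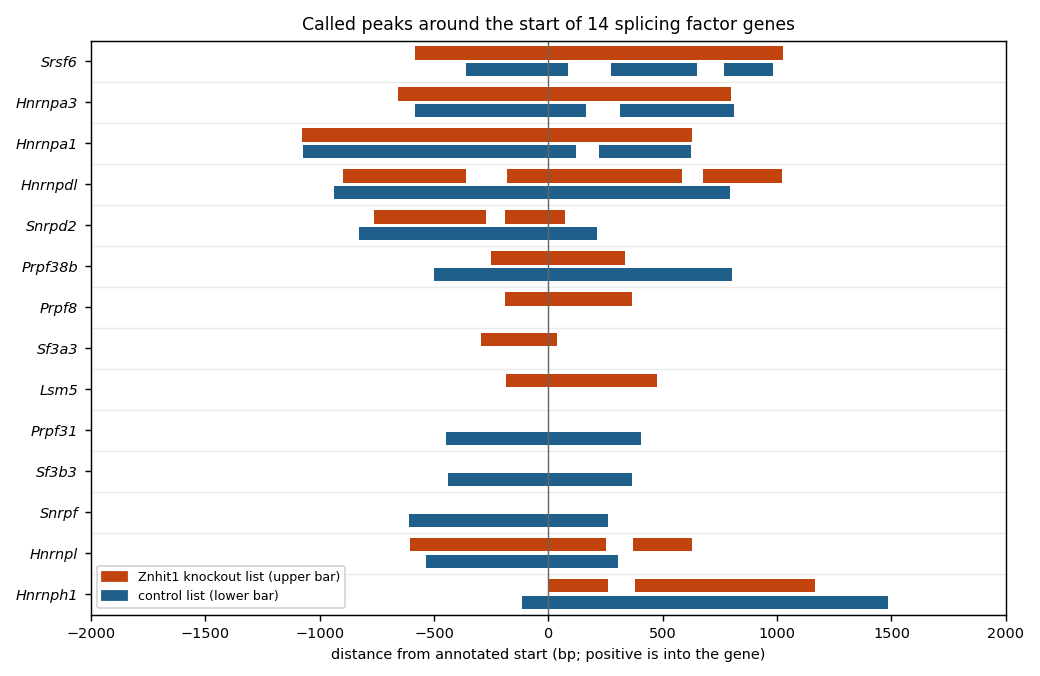
Called peaks (bars) within 2000 bp of the annotated start (x axis, bp, positive into the gene) of 14 members (y axis), with the KO list in orange above the CTRL list in blue. A single KO bar faces 3 CTRL bars at Srsf6 and 2 at Hnrnpa3 and Hnrnpa1, the reverse holds at Hnrnpdl and Snrpd2, and Prpf8, Sf3a3, Lsm5, Prpf31, Sf3b3 and Snrpf have bars in 1 list.

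The peaks sat on the annotated starts. Of the 58 members with a KO peak and a start in the promoter table, the widest peak covered the start at 55 (94.8%, against 79.8% of all such genes). In CTRL it did so at 55 of 57 (96.5%, against 78.3%). These peaks reached a median of 312 bp upstream and 474 bp into the gene in KO, and 424 bp and 445 bp in CTRL. Over all genes the medians were 317 and 372 bp in KO and 328 and 372 bp in CTRL. At SR genes the reach into the gene was longer, with a median of 747.5 bp in KO and 711 bp in CTRL. Of these covering peaks, 35 of 55 reached further into the gene than upstream in KO (63.6%, against 55.7% of all such genes) and 30 of 55 in CTRL (54.5%, against 55.1%). When every annotated start of a gene was counted, a start lay inside some peak at 60 of 72 members in KO (35.6% of all genes with a start). In CTRL this held at 59 (30.4%), and in both lists at 54 (27.0%). Counted in this way, a start lay in a peak in KO alone at 6 (8.56% of all genes), in CTRL alone at 5 (3.36%) and in neither list at 7 (61.1%). Sf3a2, an SF3a subunit gene, is among the 6 and Snrpa1 among the 5, although both had gene-end peaks in both lists. Counted position by position around the most upstream start alone, peaks covered at most 58 of 72 members in KO (80.6%). This count was the same 100 bp upstream, 50 bp upstream and at the start. In CTRL peaks covered at most 59 members (81.9%, 50 bp upstream), and 58 at the start. Over all genes with a start the highest coverage was 34.4% in KO and 29.3% in CTRL.

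**Figure D4:**
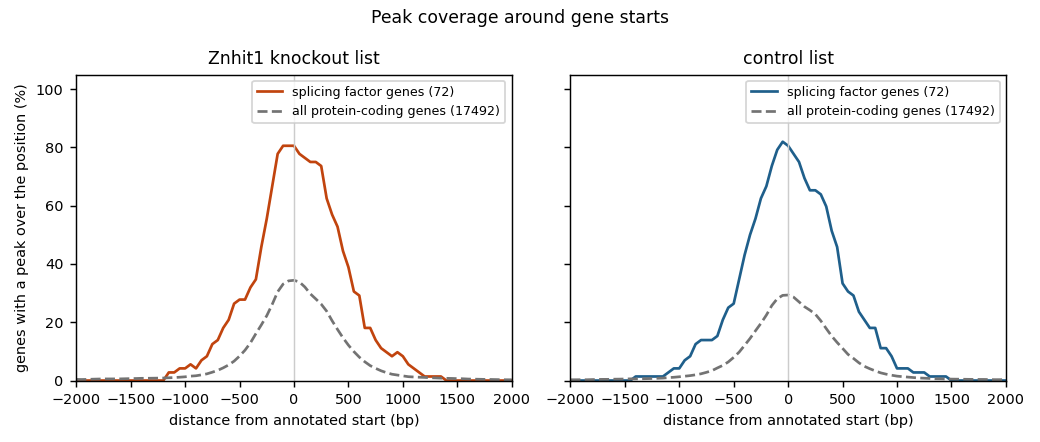
Share of genes with a called peak over each position (y axis, %) by distance from the most upstream annotated start (x axis, bp), for the KO list (left) and the CTRL list (right). Solid lines are the 72 members with a start in the table and dashed lines all 17492 protein-coding genes with one. Both solid lines rise to about the same height near the start, at most 80.6% in KO and 81.9% in CTRL, above dashed lines that reach 34.4% and 29.3%.

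Members with no gene-end peak in either list fell into unlike groups. Hnrnph1, Hnrnpf and Hnrnpl, the genes of abundant regulators that bind G-rich (H1 and F) and CA-rich (L) RNA, had peaks over an annotated start that lies inside the gene as tabulated. At Hnrnpl the start lies within a peak of 854 bp in KO and 841 bp in CTRL, and the nearest peak lay 1741 bp and 1809 bp from the gene's tabulated end. At Hnrnpf a peak over 1 annotated start was 1794 bp in KO and 1619 bp in CTRL, and a peak over another was 455 bp in KO and 748 bp in CTRL. At Hnrnph1 there were 2 KO peaks of 260.0 and 788 bp, against 1 CTRL peak of 1598 bp. These 3 were the members whose class changed when peaks at any annotated start were counted as well, which brought the members in both lists to 67. The rest had no peak at a start. Snrpn encodes SmN, an imprinted Sm protein known from brain. U2af1l4 is a relative of U2af1, Srsf12 a less studied SR gene, and Lsm10 part of the U7 particle that processes histone mRNA. Lsmem1, Lsmem2 and Hnrnpa1l2-ps2 match by name alone. The nearest peak to Lsm10 lay 5102 bp away in KO and 5141 bp in CTRL, although its U7 partner gene Lsm11 had 878 bp in KO and 813 bp in CTRL. At the edge of the 1 kb window, the farthest peaks still counted lay 901 bp from the end of Hnrnpul1 in KO and 862 bp from that of Lsm12 in CTRL, and the nearest outside lay 1734 bp and 1619 bp from Hnrnph1.

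Spliceosome genes that the name rule leaves out were also open in both lists in most cases. Of 102 such genes, 76 (74.5%, 65.3 to 82.0) were open at an end in both lists, 11 in KO alone (10.8%, against 9.81% of all genes), 5 in CTRL alone (4.90%, against 4.66%) and 10 in neither. Among their 23 snRNP protein genes, 14 (60.9%) were in both lists and 7 (30.4%, 15.6 to 50.9) in KO alone: Ppih, Rnpc3, Sart3, Snrnp200, Snu13, Usp39 and Zrsr2. All 23 had a peak in at least 1 list, so the 9.81% of all genes, most without a peak, is no like base. Of all genes with a peak, 6255 were in both lists, 2147 in KO alone and 1019 in CTRL alone. The KO-alone share was 19.2% of mitochondrial ribosomal protein genes, 17.5% of proteasome genes and 4.82% of cytosolic ribosomal protein genes. Snrnp200 encodes the helicase that unwinds U4 from U6, and had a peak of 746 bp. Eftud2, a U5 GTPase gene, had one of 945 bp in CTRL alone, and Snrnp27 one of 472 bp. The U5 gene Snrnp40 was in both lists, with 970.0 bp in KO and 539 bp in CTRL. Apart from the helicase genes Snrnp200 and Ddx39b, which were counted with the snRNP genes, 9 of 10 spliceosomal helicase genes were in both lists. Over the 102 genes the widest gene-end peaks had medians of 811 bp in KO and 785 bp in CTRL, and 28.7% of those with a KO peak and 30.9% of those with a CTRL peak reached 1000 bp. This width was common at branch point and early factors (8 of 15 in KO and 8 of 14 in CTRL) and at other hnRNP-like genes (6 of 10 in KO and 5 of 11 in CTRL). Cytosolic ribosomal protein genes were in both lists at 66 of 83, with median widths of 729.5 bp in KO and 736 bp in CTRL. For proteasome genes this was 22 of 40, with 613 bp and 561 bp. A width of at least 1000 bp was found at 10.0% of the cytosolic ribosomal genes with a peak in KO and at 13.0% of those in CTRL. No test of these differences between gene families was run.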

How the data were processed

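The authors deposited a peak list for replicate 1 of each genotype, with chromosome, start and end of every called interval. The submitters' processing notes name MACS2 2.2.4, the build mm10, Picard 2.20.7, Bowtie2 2.3.4.3 and cutadapt 2.5. The sources used here do not state the threshold, any Tn5 shift or whether replicates were pooled. The other 2 libraries were not analysed here.

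Repeated lines were counted once (29656 and 24167 lines in KO and CTRL). Intervals were assigned to genes of RefSeq GRCm38.p6 within 1 kb of either end with scipy 1.17.1, pandas 2.3.3 and numpy 2.4.6 under Python 3.11.15, and drawn with matplotlib 3.10.9. The assignment was tested on simulated intervals and matched a direct search in 800 of 800 cases over 400 genes. Starts, strand and sequences came from the RefSeq promoter table. The wide-peak limit of 1000 bp and the 2-fold limit are descriptive. Genes named are all members in 1 list or neither, the widest, the narrowest and those with extreme width ratios, plus up to 4 per spliceosome part; any others were picked with values in view. The values of 1 member are not reported here, and it is left out of the plot of widths. The members and gene lists were chosen with earlier results of these data known. No test between genotypes was possible, since there is 1 list each.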

Additional observations from a re-analysis of the deposited data

How the results depend on the processing

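The 9 summary values (members in both lists, in 1 list alone, in neither and in each list, median widths and median width ratio) were recomputed with windows of 500 bp and 3 kb, intervals listed at least 2 times, peaks at least 300 bp wide, the 15376 widest peaks of each list, intervals within 200 bp merged, gene starts only, and peaks at the end of no other coding gene. Any annotated start, and leaving out the 3 name-only matches, were added after seeing the data. Of 93 alternative values, 86 kept the reported size, within 1.5 times for counts and within the 95% interval of the median for widths. Some of these values could not change. The CTRL list holds 15376 intervals, so that setting left it whole. The 3 name-only matches had no peak, so leaving them out could change only the count in neither list. Gene-start counts were out of 72 members, not 84. With intervals listed at least 2 times, 11 members were in KO alone (7.71% of all genes), 12 in CTRL alone (6.56%) and 16 in neither (69.9%). With peaks at the end of no other gene, 37 were in both lists (44.0%, against 19.1% of all genes). In that setting 36 were in neither, 44 in the KO list and 41 in the CTRL list, and the matching shares of all genes are not given here. The cause was not tested. The median width ratio stayed between 0.02 and 0.05 (log2). No paired analysis was possible because only 1 list per genotype was analysed, and for the same reason no replicate could be left out.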

Other observations

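Away from the ends of the member genes, by more than 1 kb, the KO list held 18 peaks in 15 genes (17.9%, against 20.7% of all protein-coding genes) and the CTRL list 8 in 6 (7.14%, against 15.6%). Of these, 9 of the KO peaks and 6 of the CTRL peaks overlapped a peak of the other list, and 5 in each list lay over an annotated start. Srsf11 had one over an annotated start inside the gene, of 719 bp in KO and 811 bp in CTRL. Peaks with no counterpart in the other list and no annotated start nearby lay in KO inside Prpf6 (491 bp), Hnrnpm (552 bp), Srsf4 (483 bp), Prpf3 (409 bp), Snrpn (327 bp) and Sf3b3 (171 bp). Sf3b3 thus had a gene-end peak in CTRL alone, and its KO interval inside the gene was narrow. That interval was listed 1 time and lay 20965 bp from the annotated start. Inside Hnrnpul1 such a peak of 260.0 bp was found in CTRL. These genes were chosen after their values were seen.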
